A study of Mus musculus with 3 samples.

Results

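The 9 genes described here build, load and switch on MHC class II molecules: H2-Aa, H2-Ab1, H2-Eb1, H2-Oa, H2-Ob, H2-DMa and H2-DMb1 on chromosome 17, Cd74 on chromosome 18 and Ciita on chromosome 16. They were named as a set, and their peaks of 5-hydroxymethylcytosine (5hmC) were all distinct listed intervals whose midpoint lay in the gene span or within 5 kb of it. That gave 99 of the 208468 distinct intervals, at 9 of the 21779 protein-coding genes. TET enzymes oxidise 5-methylcytosine to 5hmC, which was tagged in sonicated bone marrow DNA with an azide-bearing glucose, coupled to biotin, captured and sequenced. The labels name 2 samples of NIDF-AML, an acute myeloid leukaemia of mouse bone marrow cells induced by FLT3-ITD, DNMT3A/R882H, NPMc and IDH2/R140Q, and 1 sample of normal bone marrow cells. How the mutations were introduced, the strain and the age of the mice are not stated in the labels.

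Lists of peaks were used for the 2 leukaemia samples, and no list of normal marrow was analysed here. The lists were identical in all 223267 lines, so they were counted as 1 list, and no value below has a spread between replicates. Both file headers name the library of index 4 as the treatment, and as the control they name index 5 for leukaemia replicate 1 and index 6 for replicate 2. The labels do not say which sample carries index 4, so the values belong to the index 4 library and no comparison of leukaemia with normal marrow was made. A line holds positions only, so peak height and read depth are unknown, and a gene without a peak is one at which none was listed. Ranges in parentheses after a count or density are exact 95% Poisson intervals, which assume that peaks are independent and hold counting error alone. In DNA from mixed marrow cells, more cells with 5hmC at a site and more 5hmC per cell cannot be told apart.

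MHC class II molecules are paired α and β chains that show peptides from endosomes to CD4 T cells. In marrow they are known from B cells, dendritic cells and macrophages, while most granulocytes carry little. The invariant chain encoded by Cd74 fills the groove of a newly made molecule, the H2-DM pair exchanges the remaining fragment for a peptide, and the H2-O pair restrains H2-DM. Ciita encodes the coactivator that turns the whole set on, acting through factors bound to a shared promoter module of an X box and a Y box.

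The promoters are shown first because this module is known from class II promoters, and because no promoter window on hand held a peak. Not every window held the motifs searched for. The RefSeq promoter table (assembly GRCm38.p6, the same chromosome sequences as mm10) had 7 windows for 6 of the 9 genes, each running from 250 bases before a start to 50 after it. H2-Ab1, Cd74 and Ciita have no entry there. Below are the last 160 bases before the start of 5 genes, 5′ to 3′ on the strand of the gene. Capitals mark GATTGG (a Y box core, on either strand), ATGATG (an end of the X box) and TGACGTCA (a cyclic AMP response element).
H2-Eb1, chr17:34305707-34305866, plus strand: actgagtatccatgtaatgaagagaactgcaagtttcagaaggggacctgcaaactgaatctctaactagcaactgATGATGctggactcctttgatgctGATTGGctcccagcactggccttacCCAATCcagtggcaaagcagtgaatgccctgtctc
H2-Aa, chr17:34287824-34287983, minus strand: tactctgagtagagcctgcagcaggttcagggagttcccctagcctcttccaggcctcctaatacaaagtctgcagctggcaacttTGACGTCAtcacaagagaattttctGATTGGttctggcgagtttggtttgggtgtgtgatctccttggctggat
H2-DMb1, chr17:34153031-34153190, plus strand: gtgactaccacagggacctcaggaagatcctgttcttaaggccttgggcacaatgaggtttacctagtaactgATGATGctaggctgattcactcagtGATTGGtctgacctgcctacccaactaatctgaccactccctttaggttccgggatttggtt
H2-Ob, chr17:34238745-34238904, plus strand: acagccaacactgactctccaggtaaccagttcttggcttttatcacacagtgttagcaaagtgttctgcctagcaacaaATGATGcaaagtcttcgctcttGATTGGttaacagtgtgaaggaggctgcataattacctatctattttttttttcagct
H2-Oa, chr17:34092219-34092378, plus strand: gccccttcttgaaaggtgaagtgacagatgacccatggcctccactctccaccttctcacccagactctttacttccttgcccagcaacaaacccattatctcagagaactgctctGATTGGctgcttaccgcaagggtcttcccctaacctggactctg

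In 4 of these promoters ATGATG or TGACGTCA stood before a GATTGG on the strand of the gene, and the spacing from first base to first base was 25 bases in H2-Aa, 25 in H2-DMb1, 24 in H2-Eb1 and 22 in H2-Ob. Both motifs and the limit of 40 bases were chosen after these sequences were seen, so the match is a description and not a test. Over the 21263 promoter windows of protein-coding genes, 30 (0.141%) held such an ordered pair within 40 bases. One of the 30 was the window of H2-DMb2, the neighbour of H2-DMb1, with a spacing of 25 bases. Singly, GATTGG was found on either strand in 18.2% of all windows, ATGATG in 9.58% and TGACGTCA in 2.23%. The H2-Oa window held GATTGG without an exact match to either partner. Only exact sequences were searched, so an X box of another sequence would be missed.

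The H2-DMa windows differed from each other in sequence. They belong to 2 annotated starts, and neither held the pair. Neither start is the low end of the H2-DMa span (34119693), which has no window. Any other start of H2-DMa was therefore not searched for the motifs or for a peak in its window. The window of the start at 34122832 held 29 CpG sites, against 3 each for H2-Oa, H2-DMb1 and H2-Aa, 2 for H2-Ob and 0 for H2-Eb1. The window of the other H2-DMa start, at 34125518, held 0. The CpG-rich window (34122582 to 34122881) contains a start of Brd2 on the opposite strand, at 34122607. The window of that Brd2 start held 32 and overlaps the H2-DMa window, so both counts include the same bases. Over all windows the median was 13 CpG sites. The 160 bases before the start at 34122832 are shown with each CpG in capitals, since CpG is where most methylated cytosine lies.
H2-DMa, chr17:34122672-34122831, plus strand: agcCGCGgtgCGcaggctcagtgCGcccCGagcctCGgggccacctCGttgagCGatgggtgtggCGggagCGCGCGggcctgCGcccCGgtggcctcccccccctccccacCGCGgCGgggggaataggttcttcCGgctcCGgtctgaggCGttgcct

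No promoter window of the 6 genes held the midpoint of a peak. Over all 21263 windows 767 did (3.61%), so an empty window is the common case and says little about these genes. The share depended on the number of CpG sites: it was 1.04% of windows with 0 to 2 CpG sites, 7.32% with 3 to 5, 10.1% with 6 to 10, 3.66% with 11 to 20 and 0.881% with over 20. Peaks nevertheless lay close to some starts. H2-Aa, the α chain of I-A, had its nearest peak 159 bp inside the gene (34287632 to 34287696), and H2-Eb1, the β chain of I-E, had one 181 bp inside (34306028 to 34306068). H2-DMb1 had a peak on each side, 425 bp inside (34153572 to 34153660) and 527 bp before the start (34152620 to 34152708).

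The other starts were farther from a peak. H2-Oa had its nearest peak 877 bp inside the gene and the next 1047 bp before the start. The H2-DMa starts were 1144 bp and 1002 bp from the nearest peak, and the start of H2-Ob was 2223 bp away. Over all promoter windows the median distance from a start to the nearest peak was 2393 bp, and all 7 class II starts that had a window were nearer than that. Within 2 kb of the start, H2-Aa had 4 peaks, H2-Oa and H2-DMb1 3 each, the H2-DMa starts 2 and 3, H2-Eb1 1 and H2-Ob 0. Of all windows, 46.3% had a peak that close.

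**Figure D1:**
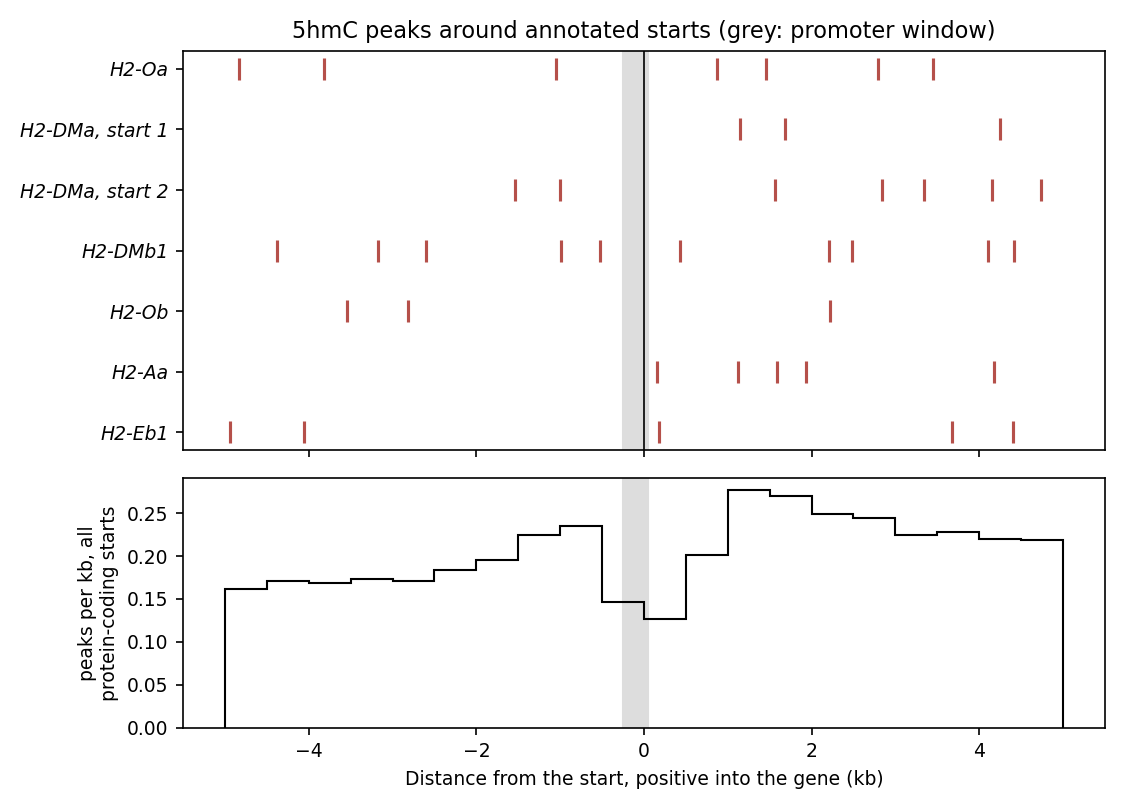
Upper panel: midpoints of listed 5hmC peaks (red marks) by distance from the 7 annotated starts of 6 class II genes, in kb and positive into the gene, with the promoter window in grey. Lower panel: peaks per kb in 500 bp steps over all 21263 windows of protein-coding genes. No red mark falls in the grey window, and the nearest lies 159 bp inside H2-Aa; over all genes the density dips to 0.127 peaks per kb in the first 500 bp inside the gene.

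All 9 genes had at least 1 peak within 5 kb and at least 1 in the gene span. The same held for 73.1% of all protein-coding genes by the first measure and for 66.6% by the second, so the count of 9 says little. By peaks per kb of the span plus both flanks, 5 of the 9 reached the top 10.0% of protein-coding genes (at least 0.523 per kb), a share fixed by how the threshold was set. These 5 were H2-DMa, H2-DMb1, H2-Oa, H2-Ab1 and Cd74. The count was 1 with peaks of the median width or wider, 3 with 10 kb flanks and 6 with gene spans alone. Neighbouring genes share these flanks: of the 35 flank peaks, 10 lay in the span of another protein-coding gene and 5 in a non-coding gene only. The median over the 9 genes was 0.532 peaks per kb, against 0.106 over all protein-coding genes, and all 9 lay above that genome-wide median. In number, the median was 9 peaks, against 4 over all genes. The 9 regions did not share a peak, and together they held 99 peaks (80.5 to 121) in 208 kb. Counting the spans only, they held 64.

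**Figure D2:**
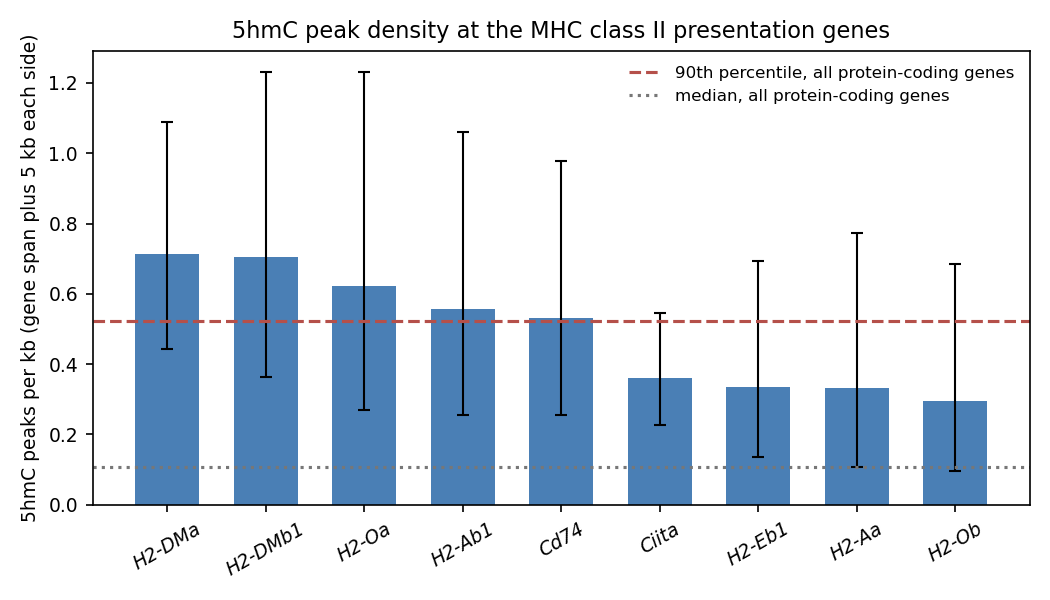
Peaks per kb of gene span plus 5 kb on each side for the 9 genes (bars from 0), with exact Poisson 95% intervals, which cover counting error only. The dashed line is the 90th percentile over all protein-coding genes (0.523) and the dotted line the median (0.106); 5 bars reach the dashed line, and the interval of H2-Ob (0.0955 to 0.686) is the only one to reach below the dotted line.

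Each of the antigen-presenting chain genes held 5 peaks in its span, and they differed in the flanks. H2-Aa (chromosome 17, 34282744 to 34287823) held 5 peaks (1.62 to 11.7) in its 5.08 kb and none in either flank. That is 0.984 peaks per kb of span, above 98.1% of protein-coding genes, while span and flanks together gave 0.332 per kb, above 77.6%. Its other peaks nearest to a gene end were at 34283592 to 34283688 and 34286664 to 34286744. H2-Ab1, the β chain of I-A (34263227 to 34269418), held 5 peaks in its span and 4 in the flank toward H2-Ob, 9 in all (4.12 to 17.1) or 0.556 per kb. The flank on the other side, toward H2-Aa, held 0. The peaks of H2-Ab1 nearest to a gene end were at 34268656 to 34268704, 34262004 to 34262076 and 34267948 to 34268052.

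H2-Eb1 (34305867 to 34316674), the β chain of I-E, held its 5 peaks over a span of 10.8 kb. With 2 more in the flank toward H2-Aa it had 7 (2.81 to 14.4), or 0.336 per kb, above 78.0% of protein-coding genes. Beside the peak 181 bp inside the start, the nearest to a gene end were at 34315716 to 34315812 and 34314432 to 34314472. H2-Ea, which encodes the α chain of I-E in mice that have one, is annotated as a transcribed pseudogene and held 2 peaks in 2.69 kb.

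The genes of the peptide exchange factor H2-DM had the highest densities of the 9 with 5 kb flanks, but not in the spans alone, where H2-Oa (1.05 per kb), H2-Aa (0.984), H2-Ab1 (0.807) and Cd74 (0.795) stood above H2-DMa (0.773) and H2-DMb1 (0.710). H2-DMa (34119693 to 34139101) had 21 peaks within 5 kb (13.0 to 32.1), or 0.714 per kb, and ranked 720 of 21779 genes. Of these, 15 lay in the 19.4 kb span, 2 in the flank toward H2-Oa and 4 in the flank toward H2-DMb2. The annotated span overlaps the start of Brd2, a bromodomain gene on the opposite strand, and the 7.21 kb from 34116757 to 34123963 across that overlap held no peak. Toward the far end the peaks stood close: 34138424 to 34138480, 34139028 to 34139076 (49 bp from the span's end) and 34139688 to 34139744. How reads shared between H2-DMb1 and its neighbouring copy H2-DMb2 were placed is not stated, so the peaks of both are uncertain. H2-DMb1 (34153191 to 34160229) had 12 peaks (6.20 to 21.0), or 0.704 per kb, with 5 in the span, 5 in the flank toward H2-DMb2 and 2 in the other. Of the 5, 3 lay inside H2-DMb2, and the 2 low-flank peaks of H2-DMa lay inside Brd2. A further peak near the start of H2-DMb1, at 34152156 to 34152244, lay 991 bp before it.

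The H2-O genes, whose product restrains H2-DM in B cells, differed from each other in count, and the intervals overlapped. H2-Oa (34092379 to 34095234) had 8 peaks (3.45 to 15.8) within 5 kb, or 0.622 per kb, with 3 of them in its 2.86 kb. One peak (34095120 to 34095224) lay 62 bp from the span's end and another (34095804 to 34095852) 594 bp beyond it. Every one of the 8 intervals was repeated in the list, giving 17 lines. H2-Ob (34238905 to 34245908) had 5 peaks (1.62 to 11.7), or 0.294 per kb, the lowest of the 9. Only 1 lay in its span (34241092 to 34241164), which put it at 0.143 per kb, above 57.1% of protein-coding genes. The nearest peaks beyond its far end were at 34246928 to 34247000 and 34248632 to 34248704.

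Cd74 and Ciita lie outside the cluster. Cd74 (chromosome 18, 60803849 to 60812652), the invariant chain, had 10 peaks (4.80 to 18.4), or 0.532 per kb, above 90.4% of protein-coding genes. Its 7 peaks in the span were spread from 9.12% to 95.3% of its length, and the flanks held 2 and 1. The peaks nearest to a gene end were at 60812204 to 60812268, 60803160 to 60803200 and 60804616 to 60804688. Ciita (chromosome 16, 10480014 to 10531064), the coactivator, had the most peaks of the 9, 22 (13.8 to 33.3), but over the longest region, 61.1 kb, or 0.360 per kb. The first peak stood 6.80 kb into the span, the flank below it held 0, and the 18 peaks of the span ran from 13.3% to 96.9% of its length, with a median spacing of 1981 bp over the whole region. The other flank held 4 peaks, all inside the neighbouring gene Dexi, among them 10531477 to 10531543 and 10532499 to 10532523, and the last in the span was at 10529464 to 10529544. Dexi also overlaps that end of Ciita.

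**Figure D3:**
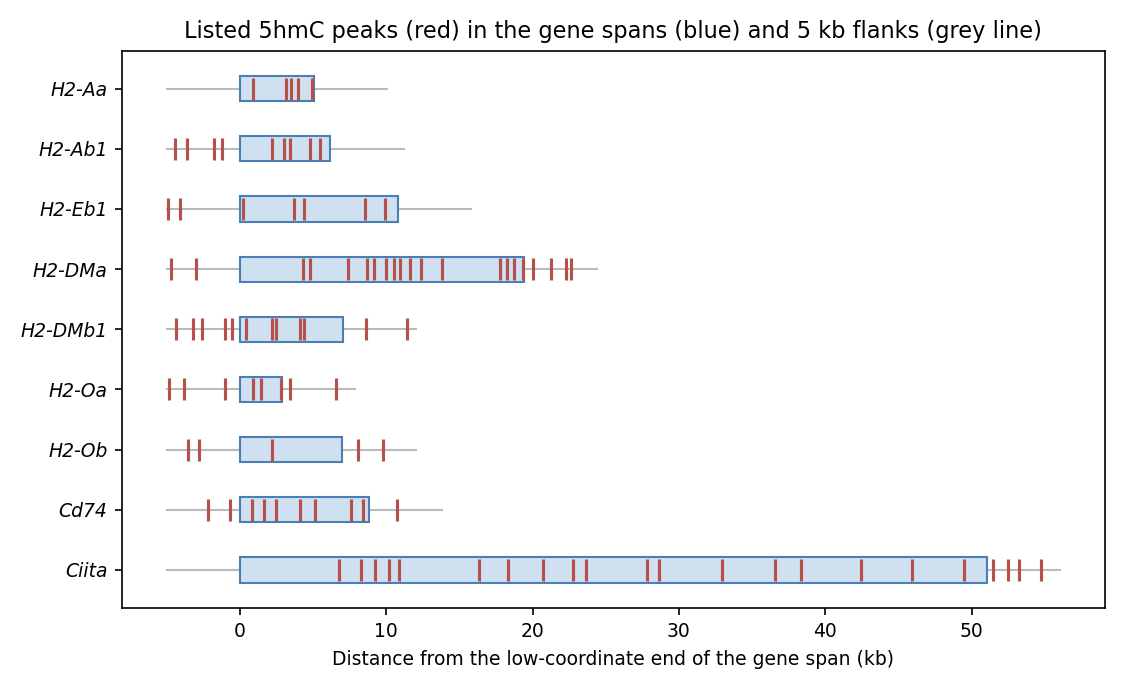
Midpoints of listed peaks (red marks) in the span of each gene (blue box) and the 5 kb flanks (grey line), by distance in kb from the low-coordinate end of the span. H2-Aa has all 5 peaks in its span, H2-Ob has 1 of 5 there, and the first peak of Ciita stands 6.80 kb in.

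Widths did not set the class II peaks apart from the list. Their median was 65 bp, with a range of 19 to 121 bp, and the median over the whole list was also 65 bp (quartiles 49 and 81 bp). They covered 3.13% of the bases in the 9 regions. In the chromosome 17 cluster all starts and ends were multiples of 4.

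The chromosome 17 cluster, from the low end of H2-Oa to the high end of H2-Eb1 (34092379 to 34316674), held 140 peaks (118 to 165) in 224.3 kb, or 0.624 per kb. The rest of chromosome 17 had 0.123 per kb, a ratio of 5.07 (4.26 to 5.99), and the rest of the autosomes 0.0864, a ratio of 7.23 (6.08 to 8.53). Counted in protein-coding gene spans alone, the ratios were 4.06 and 5.61. Of the 140 peaks, 64 lay within 5 kb of a class II gene described here and 39 in its span. Protein-coding spans took up 46.6% of the length and held 80 peaks (57.1%). A further 6 lay in the long non-coding RNA gene Gm20506, and 54 lay in no annotated gene. BC051537, another such gene, overlaps H2-Oa.

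Peaks stood all along the cluster rather than at the class II genes alone. In 10 kb steps, 22 of 23 windows held a peak, where 69.8% of autosomal windows held none. On the chromosome's own 10 kb grid the window with the most, from 34210000 to 34219999 at Tap2, held 11, more than 99.7% of autosomal windows. Which gene the highest window meets depends on the grid: in steps counted from H2-Oa, the highest, also with 11, meets Psmb9 and Tap1. The 100 kb window from 34100000 to 34199999 held 75 peaks, more than 99.7% of autosomal windows of that size, where the median was 1.

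The cluster also holds genes of other functions. Tap1 and Tap2, the peptide transporter of class I presentation, held 9 and 10 peaks in their spans. Psmb9 and Psmb8, subunits of the immunoproteasome, held 5 and 2. H2-DMb2, the other DM β gene, held 9 in 8.32 kb, and with its flanks 1.09 per kb, above 99.9% of protein-coding genes. Brd2 held 6. The stretch from Psmb9 to Tap2 had 0.875 peaks per kb (0.590 to 1.25).

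The stretch with the antigen-presenting chains and H2-Ob had fewer peaks per kb than the stretch with H2-Oa and the H2-DM genes. From H2-Ob to H2-Eb1 there were 33 peaks in 77.8 kb, or 0.424 per kb (0.292 to 0.596). From H2-Oa to H2-DMb1 there were 55 in 67.9 kb, or 0.811 per kb (0.611 to 1.06). The ratio was 0.523 (0.329 to 0.820). This division was chosen after the positions were seen, and the interval covers counting error only. The stretch from H2-Oa to H2-DMb1 also holds H2-DMb2, with 9 peaks of uncertain placement in its span, and Brd2, with 6. The stretch from H2-Ob to H2-Eb1 also holds Gm20506, with 6. Part of the difference lies between genes: the 13.3 kb between H2-Ab1 and H2-Aa held 0 peaks (0 to 3.69). It is the core of the longest stretch without a peak in the cluster, 14.9 kb from 34268705 to 34283591, where the median gap was 0.863 kb. Another 4 gaps exceeded 5 kb, including 6.67 kb on the far side of H2-Aa and 5.76 kb from within H2-Ob. The 8.83 kb between H2-Eb1 and H2-Eb2, just past the cluster, also held 0.

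**Figure D4:**
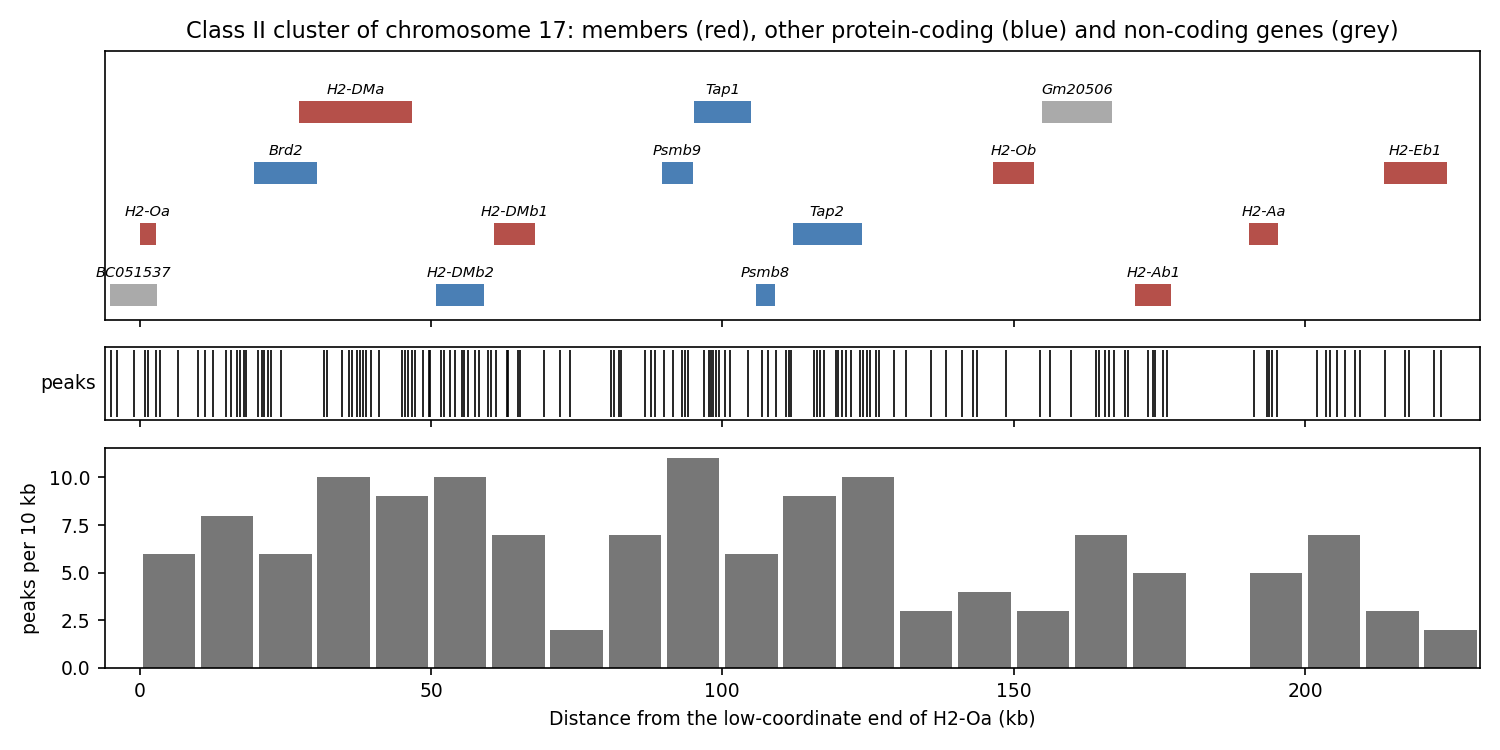
The class II cluster by distance in kb from the low-coordinate end of H2-Oa. Top: gene spans, with the class II genes described here in red, other protein-coding genes in blue and non-coding genes in grey. Middle: each listed peak as a line. Bottom: peaks per 10 kb, in steps counted from the low end of H2-Oa, which reach 11 over parts of Psmb9 and Tap1 and are 0 between H2-Ab1 and H2-Aa.

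Other genes of the class II pathway were taken from a list of 20. All 20 had a peak within 5 kb, as did 73.1% of all protein-coding genes, so that count says little. Their median was 0.349 per kb, and 4 were in the top 10.0%. The endosomal enzymes that prepare peptides and degrade the invariant chain were the densest of the larger groups, with a median of 0.535 per kb and 3 of 6 in the top 10.0%. Ifi30, the thiol reductase, had 13 peaks or 0.936 per kb, Ctsd 18 or 0.821 and Ctsb 19 or 0.568. Lgmn had the most in number, 28, and Ctss, the protease of the last step of invariant chain removal in B cells and dendritic cells, had 14. Ctsl, its counterpart in thymic epithelium, had 1.

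The factors that bind the X and Y boxes had fewer. Over these 7 genes the median was 0.335 per kb, and none was in the top 10.0%. Nfyb and Nfya, subunits of the Y box factor NF-Y, had 13 and 12 peaks, while Nfyc, the other subunit, had 4. Creb1 had 11. Of the RFX complex, Rfx5 and Rfxank had 7 each and Rfxap 1. The ubiquitin ligase genes Marchf1 and Marchf8, whose products send class II molecules to lysosomes, had 19 and 11 peaks. Marchf1 is 855 kb long, so its density was 0.0220 per kb. The costimulatory genes Cd80, Cd86 and Cd40 had 18, 16 and 9 peaks. H2-Eb2 had 6, or 0.232 per kb.

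Class I presentation genes had densities of the same order. Of 13 genes, all had a peak within 5 kb, against 73.1% of all protein-coding genes, and 7 were in the top 10.0%. The median over the 9 class II genes was 0.532 per kb, against 0.555 over these 13. Tap1, Tap2, Psmb8 and Psmb9 lie in the cluster, so their values are not separate from it. Outside it, B2m, the light chain of class I, had 11 peaks or 0.714 per kb, and Nlrc5, the class I relative of Ciita, had 36 or 0.350 per kb. H2-K1 had 2 and Erap1 1. No difference between the lists was tested.

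Markers of blood cells gave the following background, as genes with a peak within 5 kb. Over all protein-coding genes that share was 73.1%, so a full count in a short list says little. B cell genes had a peak at 5 of 5 (median 0.245 per kb), with 48 at Pax5, 13 at Cd79a and 11 at Cd79b. Dendritic cell genes had one at 5 of 5 (0.152), with 20 at Itgax and 1 at Siglech. Monocyte and macrophage genes had one at 5 of 5 (0.251), with 34 at Csf1r, and granulocyte genes at 6 of 6 (0.476), with 13 at Mpo and 11 at Elane. T cell genes had one at 5 of 5 (0.192), with 13 at Lck and 1 at Cd3e, and erythroid genes at 4 of 5 (0.263), with none at Alas2. Hepatocyte genes, from a tissue that was not sampled, had one at 2 of 5, with none at Alb, Cyp2e1 and Tat. The share contributed by each cell type to the class II peaks was not tested.

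**Figure D5:**
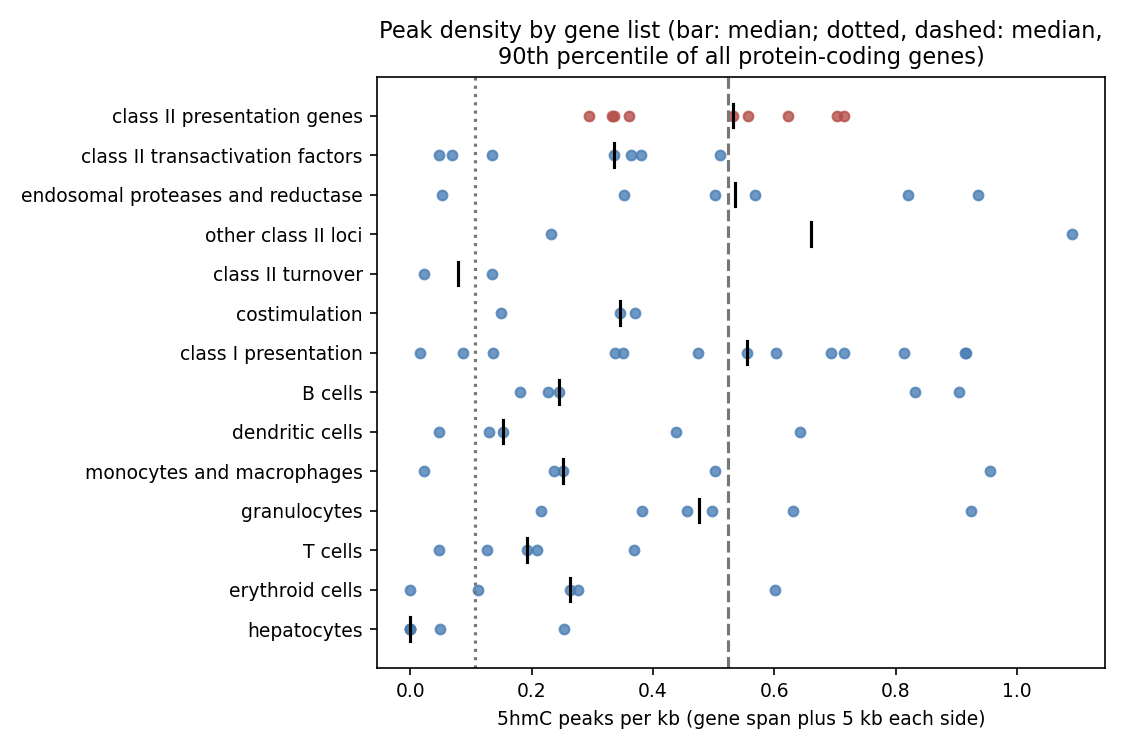
Peaks per kb of gene span plus 5 kb on each side, with 1 point per gene and a bar at the median of each list. The class II genes (red) run from 0.294 to 0.714 per kb, and all lie right of the dotted line, the median of all protein-coding genes (0.106); the dashed line is their 90th percentile (0.523).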

How the data were processed

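The authors called peaks with PICS, a peak caller for ChIP-seq data, per the file headers. These state 99 bp reads, 200 bp fragments and a 250 bp window with a 20 bp slide. The minimum count, given for forward and reverse reads, was 3 in a window and 10 in a region. The headers also give an upstream padding of 5000 bp for genes and a maximum of 5 binding sites per gene. The span count of each antigen-presenting chain gene was also 5. The lists held more than 5 peaks in the spans of Ciita (18), H2-DMa (15) and Cd74 (7). How the maximum was applied is not stated, and whether it shaped the listed peaks was not tested. The deposited lists hold positions without a score, in the mm10 build per the submitters' processing notes. The aligner and what the control libraries were are not stated.

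Repeated lines (14799) were dropped. Gene spans came from RefSeq (GRCm38.p6). Models starting below 3 Mb on chromosomes other than Y were left out as scaffold models. A peak belonged to every gene with its midpoint in the span or within 5 kb. Chromosome lengths ran from the first to the last peak. Percentiles are over protein-coding genes. Python 3.11.15, pandas 2.3.3 and scipy 1.17.1 were used, and the counting was tested on simulated data. Named by rule were the 9 genes, the genes of the cluster, and up to 3 genes with most peaks in each pathway list, class I included. Other genes, among them the blood cell markers named, were chosen after their values were seen. No test across samples was possible. The members and lists were chosen with earlier results of these data known.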

Additional observations from a re-analysis of the deposited data

How the results depend on the processing

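With peaks of the median width (65 bp) or wider, the 9 regions held 53 peaks, 1 gene was in the top 10.0%, and the cluster had 0.343 per kb. In gene spans alone the regions held 64 peaks. With 10 kb flanks 3 genes were in the top 10.0%. With repeated lines kept, the cluster had 0.749 per kb and H2-Oa 17 peaks. Over protein-coding spans the cluster had 0.766 per kb, and the ratios were 4.06 to the rest of chromosome 17 and 5.61 to the rest of the autosomes. All 9 genes had a peak under every alternative run, gene spans alone included. The causes of these shifts were not tested. Leaving out either replicate gave the same values (99 peaks, 9 and 5 genes, 0.624 per kb, ratios 5.07 and 7.23), since the lists are identical, and says nothing about stability. No score cutoff could be applied. No paired analysis was possible because no result comes from a test and normal marrow has no list here. Extended to the end of H2-Eb2 the cluster had 0.578 per kb, and without the stretch of its 4 class I genes 0.579, both alternatives chosen after seeing the data. Unknown read depth limits every absent peak.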

Other observations

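Other histocompatibility genes of chromosome 17 were covered unevenly. Of the 6 H2-Q genes 5 had a peak within 5 kb, with a median of 0.240 per kb, and H2-Q6 had the most, 10. Of the 5 H2-T genes 4 had one, with a median of 0.320 per kb and 17 peaks at H2-T24. Of the 12 H2-M genes 4 had one, none had more than 2, and the median was 0 per kb. H2-D1, a classical class I gene, had 10 peaks or 0.694 per kb, and H2-K1, another, had 2 or 0.137 per kb. Genes of these families resemble each other in sequence, so the assignment of reads among them is uncertain. No difference between the families was tested.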
